A study of Mus musculus with 30 samples.

Results

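The ventricular myosin chains examined here are 5 genes of the 36558 in the table of estimated counts: the heavy chain genes Myh6, Myh7 and Myh7b and the light chain genes Myl2 and Myl3. They were picked by name, with Ensembl identifiers matched to symbols; the rule uses no measured value, but it was written with earlier results of these data known. The mice were C57BL/6J males, and RNA was sequenced from their heart and white adipose tissue. All mice carried an AAV8 vector, a virus used to deliver a gene, and all were kept for 7 weeks on a high-fat diet (HFD) with l-NAME, which blocks nitric oxide synthases, until collection at 15 weeks of age. The control vector encoded GFP, a fluorescent protein, and the other encoded F11, coagulation factor XI. The table held 6 heart libraries with AAV8-GFP, 7 heart libraries with AAV8-F11, and 8 adipose libraries of each vector. No group without vector or on another diet was among these samples, and the promoter of the vectors is not given in the sources used here.

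Myosin is the motor of the thick filament in muscle. Each molecule pairs heavy chains, which hydrolyse ATP and pull on actin, with essential and regulatory light chains that stiffen and tune the lever arm. In the adult mouse ventricle the fast alpha heavy chain, encoded by Myh6, predominates over the slow beta heavy chain, encoded by Myh7, and a shift towards Myh7 is a textbook feature of fetal and stressed hearts. Myh7b encodes a related slow heavy chain. Myl2 encodes the ventricular regulatory light chain and Myl3 the ventricular essential light chain.

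In GRCm38 (GENCODE M21), Myh6 (ENSMUSG00000040752) lies at chr14:54941921-54966927 and Myh7 (ENSMUSG00000053093) at chr14:54970684-54994626. Both are on the minus strand, with 3756 bases between them. Myh7b (ENSMUSG00000074652) is at chr2:155611212-155634307, Myl2 (ENSMUSG00000013936) at chr5:122100951-122113472 and Myl3 (ENSMUSG00000059741) at chr9:110741861-110769798, all on the plus strand. Each heavy chain gene also holds a microRNA in an intron on its own strand: miR-208a in intron 29 of Myh6, miR-208b in intron 31 of Myh7 and miR-499 in intron 19 of Myh7b. The mature sequences (RefSeq, GRCm38.p6) are shown because these microRNAs are made from the transcripts measured here and share most of their seed. Capitals mark the seed, bases 2 to 8 from the 5′ end.

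miR-208a-3p (chr14:54949072-54949093): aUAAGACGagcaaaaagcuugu

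miR-208b-3p (chr14:54975710-54975731): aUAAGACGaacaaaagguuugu

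miR-499-5p (chr2:155622893-155622913): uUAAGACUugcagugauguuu

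The seeds of miR-208a-3p and miR-208b-3p were identical. These 2 microRNAs differed at 3 positions outside the seed, G10A, A16G and C18U, with the miR-208a-3p base first and positions counted from the 5′ end. The microRNAs themselves were not measured here.

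Myh6 and Myh7 also resemble each other in their coding sequence, and this bears on every value of Myh7. Of all stretches of 31 bases in the Myh6 transcript, 32.3% also occurred in Myh7, and 31.7% of those in Myh7 occurred in Myh6. With any other gene, Myh7 included, the share for Myh6 was 32.5%, and with any other gene, Myh6 included, that for Myh7 was 38.6%. Myh7 also shared stretches with Gm31251 (6.1%) and Mhrt (5.8%), neither of which is listed among the estimated counts. For any other gene the shares were 0.293% for Myh7b, 4.31% for Myl2, all of it with the neighbouring gene Ccdc63, and 0 for Myl3. The longest identical run of Myh6 and Myh7 was 245 bases. It covers parts of exons 30 and 31 of Myh6 (chr14:54948612-54948725 and chr14:54948327-54948457) and of exons 32 and 33 of Myh7 (chr14:54975234-54975347 and chr14:54974947-54975077), and is shown on the sense strand because a read that lies wholly within it fits both genes:

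Shared run of Myh6 and Myh7: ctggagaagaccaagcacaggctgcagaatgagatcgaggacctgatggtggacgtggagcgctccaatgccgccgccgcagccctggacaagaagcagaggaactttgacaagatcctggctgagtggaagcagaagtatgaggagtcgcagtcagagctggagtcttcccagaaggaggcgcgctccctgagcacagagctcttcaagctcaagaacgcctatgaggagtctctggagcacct

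Reads from such stretches were divided between the genes by estimation, so the split between Myh6 and Myh7 is less certain than the level of the light chains.

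Totals ranged from 25.75 to 33.02 in heart libraries and from 15.95 to 26.33 in adipose libraries (in units of 1e6 counts). F11 was listed with 3 counts over all F11 heart libraries and 13 over all GFP heart libraries, so its heart level does not check the labels. In adipose tissue its median was 6.10 counts per 1e6 with F11 (from 0.515 to 15.9) and 0.479 with GFP (from 0 to 4.52). Those ranges overlap, so the adipose level does not check the label of each library. One GFP adipose library, L140, stood apart: its 8 cardiac muscle markers summed to 3417 CPM (counts per 1e6, scaled by TMM within the tissue), against a median of 23.0 in the GFP adipose group. Hepatocyte markers set other libraries apart: they summed to 5434 CPM in L136 and 1502 CPM in L137 among GFP adipose libraries, to 5022 CPM in L145 and 2610 CPM in L146 among F11 adipose libraries, and to between 13.5 and 549 CPM in the other 12. In heart they summed to 174 CPM in the GFP library L2 and to at most 12.3 CPM in the others. Adipocyte markers summed to between 15126 and 30264 CPM in all adipose libraries, L140 included, and to between 535 and 825 CPM in heart. Atrial markers varied widely within heart, from 67.7 to 3033 CPM in the GFP group and from 285 to 2674 CPM in the F11 group. In bulk tissue, fewer cells of a type and less RNA per cell cannot be told apart.

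In GFP hearts the 5 transcripts made up 2.95% ± 0.164 (SD, n = 6) of all counts, and with F11 they made up 3.47% ± 0.0752 (SD, n = 7). Per kilobase of transcript and over all heart libraries, Myh6 stood at 4252 CPM per kb, rank 2 of 21829 nuclear genes. Myl2 followed at 3989 CPM per kb (rank 3) and Myl3 at 2471 CPM per kb (rank 8). Myh7 was far lower at 59.0 CPM per kb (rank 562), and Myh7b stood at 14.3 CPM per kb (rank 2479). The order of the highest pair depended on the group: in GFP hearts Myl2 (3846 ± 381 CPM per kb) and Myh6 (3788 ± 200 CPM per kb) lay within 1 SD of each other, while in F11 hearts Myh6 (4649 ± 224 CPM per kb) lay above Myl2 (4112 ± 338 CPM per kb). Myl3, Myh7 and Myh7b kept their places in both groups, each separated from its neighbours by more than their SDs.

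The first comparison asked how these transcripts differed between F11 and GFP hearts. Myh6, the alpha heavy chain, rose with F11: all 7 F11 libraries lay above all 6 GFP libraries. Myh7, the beta heavy chain, had the higher fold but did not pass the threshold. Myh7b and both light chains did not pass it either. Of the 5 genes, 1 was called higher, where 0.518% of the 14684 genes tested were called higher and 0.872% were called in either direction. All 5 had a positive log2 fold change, where 47.5% of all genes tested did. Myl2 and Myl3 varied together across libraries, so the 5 values are not independent. Of the 5, 3 (Myh6, Myh7 and Myh7b) had an unadjusted edgeR p under 0.05, a level that 6.23% of the genes tested reached in the higher direction.

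Myh6 ranged from 22390 to 25565 CPM in GFP hearts, with a median of 22615, and from 26789 to 30735 CPM in F11 hearts, with a median of 28399. The groups did not overlap; 0.613% of the genes tested had every F11 library above every GFP library. The highest GFP library, L1, lay closer to the F11 group than to its nearest GFP neighbour, at 23288 CPM. The group means were 23154 ± 1226 CPM for GFP (SD, n = 6) and 28420 ± 1372 CPM for F11 (SD, n = 7), a log2 fold change of 0.30 (SE 0.04) with an adjusted p of 0.00192 by edgeR's quasi-likelihood test. In an edgeR fit that took its spread from both tissues together, the log2 fold change was again 0.30 but its SE was 0.997 and the call was lost (edgeR adjusted p = 1).

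Myh7 ranged from 202 to 374 CPM in GFP hearts (median 237) and from 353 to 752 CPM in F11 hearts (median 439). Every F11 library exceeded the GFP median and 4 of 7 exceeded every GFP library; the overlap came from the GFP library L9, at 374 CPM. The F11 library L35, at 752 CPM, stood well above the next, L36, at 477 CPM. The means were 265 ± 67.5 (SD, n = 6) and 455 ± 140 CPM (SD, n = 7). The log2 fold change was 0.78 (SE 0.21, approximate 95% interval 0.37 to 1.19), and edgeR's adjusted p was 0.119. DESeq2 gave the same fold with an adjusted p of 0.0329, so the call for Myh7 depended on the test.

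Myh7b, the heavy chain gene that hosts miR-499, ranged from 62.1 to 89.0 CPM in GFP hearts (median 82.2) and from 80.6 to 116 CPM in F11 hearts (median 97.7). The groups overlapped, and 5 of 7 F11 values exceeded the GFP median. Its log2 fold change was 0.25 (SE 0.10, approximate 95% interval 0.06 to 0.45; edgeR adjusted p = 0.316).

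The regulatory light chain Myl2 ranged from 2928 to 3970 CPM in GFP hearts (median 3426) and from 3150 to 4028 CPM in F11 hearts (median 3686). The essential light chain Myl3 ranged from 2088 to 2416 CPM in GFP hearts (median 2284) and from 1999.6 to 2513 CPM in F11 hearts (median 2350). Both pairs of groups overlapped over most of their range, although 6 of 7 F11 libraries lay above the GFP median for each gene. The log2 fold change was 0.10 for Myl2 (approximate 95% interval -0.03 to 0.22; edgeR adjusted p = 0.588) and 0.05 for Myl3 (approximate 95% interval -0.06 to 0.15; edgeR adjusted p = 0.782). The upper ends of both intervals lay below 0.30, the log2 fold change of Myh6. The approximate 95% interval of Myh6 itself was 0.21 to 0.38, which overlapped that of Myl2 but not that of Myl3. These intervals do not test a difference between genes.

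**Figure D1:**
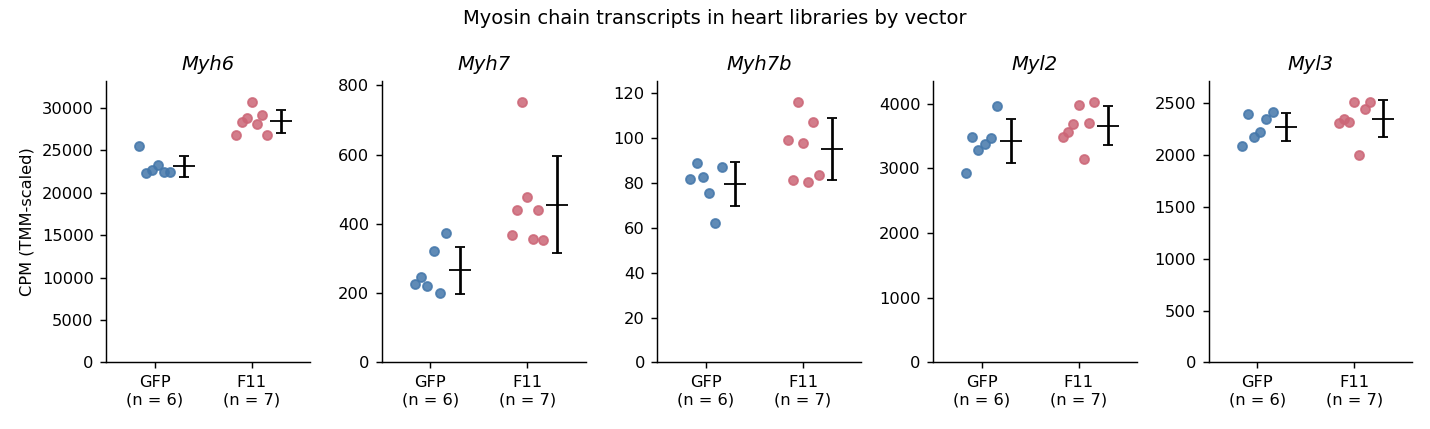
CPM of each myosin chain gene (vertical axis from 0, own scale per panel) in the 6 GFP and 7 F11 heart libraries; each point is a library, and the bar gives the mean with its SD. The groups separate for Myh6 and overlap for the other 4 genes, with L35 at 752 CPM at the top of the Myh7 panel.

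Markers of other cells were set beside these values. The 8 cardiac muscle markers summed to 15872 to 17634 CPM in GFP hearts and 17169 to 19857 CPM in F11 hearts; 8 of 8 had a positive log2 fold change, with a median of 0.09, and 0 of 8 were called. Their part in the Myh6 result was not tested. Of 5 ventricle-rich markers outside the myosin chains, 1 had a positive log2 fold change and none was called, with a median of -0.07. These 5, with Cd36 the most abundant, summed to 2100 to 2437 CPM in GFP hearts and 2096 to 2280 CPM in F11 hearts. Of 7 atrial markers, 1 had a positive log2 fold change and none was called, with a median of -0.33. With the mean log2 CPM of the atrial markers (each gene weighted alike) as a covariate, the log2 fold change of Myh6 was 0.29 (edgeR adjusted p = 0.0027). That of Myh7 was 0.77 (edgeR adjusted p = 0.135). Of 6 adipocyte markers tested, 2 were positive and none was called, with a median of -1.28, the lowest of any list with more than 1 gene tested; Adipoq, the adipocyte hormone adiponectin, had means of 1.26 ± 0.882 and 0.344 ± 0.272 CPM (edgeR adjusted p = 0.207). Positive values numbered 0 of 5 for red blood cell markers (median -0.21), 0 of 6 for fibroblast markers (median -0.11), 0 of 5 for smooth muscle markers (median -0.09), 1 of 6 for macrophage markers (median -0.16) and 3 of 5 for endothelial markers (median 0.00301), and none was called. The part of these cells in the Myh6 result was not tested either.

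The balance between chains was compared as ratios of counts per kilobase within each library, which need no scaling between libraries. The question for the heavy chains was whether Myh7 gained on Myh6. The Myh7 to Myh6 ratio ranged from 0.00866 to 0.0163 in GFP hearts (median 0.0102) and from 0.0124 to 0.0256 in F11 hearts (median 0.0148). The F11 values were above the GFP median in 7 of 7 libraries, and 1 of them, L35, was above every GFP library. The means were 0.0113 ± 0.00305 (SD, n = 6) and 0.0156 ± 0.00452 (SD, n = 7). The log2 difference was 0.47 (SE 0.20), with a two-sided exact permutation p of 0.0315, adjusted to 0.0629 over the 4 ratios tested. Without L9, the highest GFP library, the log2 difference was 0.58 and passed (adjusted exact permutation p = 0.0404), and without L35 it was 0.34. It did not pass with any of the other 12 libraries left out singly (adjusted exact permutation p up to 0.136). In both groups Myh6 remained the dominant heavy chain, with Myh7 at no more than 2.56% of its level in any heart library.

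The ratio of light chains (Myl2 + Myl3) to heavy chains (Myh6 + Myh7) lay in the opposite direction. It averaged 1.65 ± 0.196 with GFP (SD, n = 6) and 1.40 ± 0.119 with F11 (SD, n = 7), and 0 of 7 F11 libraries lay above the GFP median. The log2 difference was -0.22 (SE 0.09, exact permutation p = 0.0268, adjusted p = 0.0629). Without L1, the lowest GFP library, it was -0.29 and passed (adjusted exact permutation p = 0.0303). It did not pass with any of the other 12 libraries left out singly (adjusted exact permutation p up to 0.136). The Myh7b to Myh6 ratio differed by -0.04 on the log2 scale (exact permutation p = 0.681), and the Myl2 to Myl3 ratio by 0.05 (exact permutation p = 0.150, adjusted p = 0.200). Without L9, the highest GFP library, the Myl2 to Myl3 difference was 0.08 (adjusted exact permutation p = 0.0404). It did not pass with any of the other 12 libraries left out singly (adjusted exact permutation p up to 0.418). With all 13 libraries, none of the 4 ratios passed an adjusted p under 0.05.

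**Figure D2:**
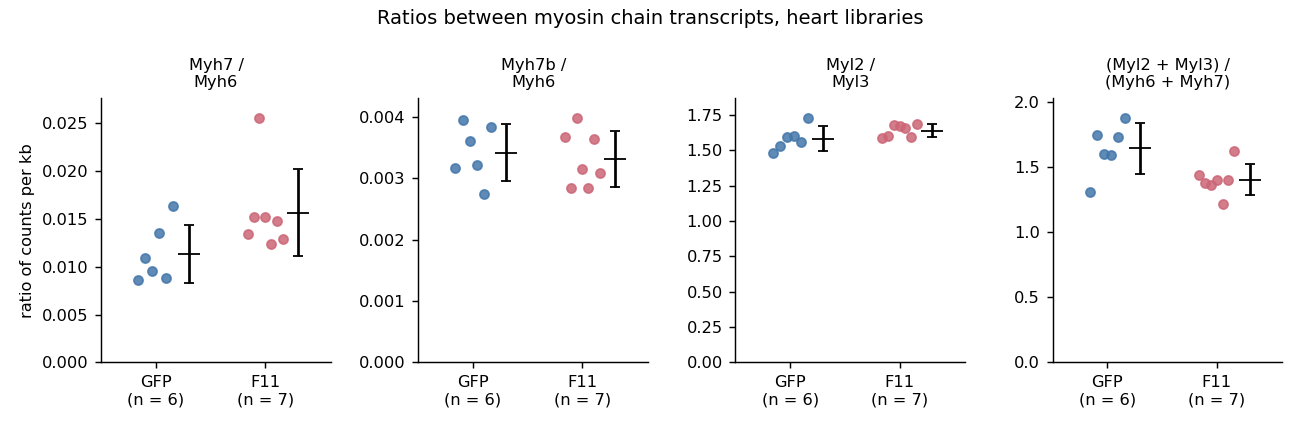
Ratios of counts per kilobase (vertical axes from 0) in each of the 6 GFP and 7 F11 heart libraries; points are libraries and bars give the mean with its SD. For Myh7 to Myh6 the F11 library L35, at 0.0256, lies above all others, and for light to heavy chains no F11 library lies above the GFP median.

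The chains were then compared with each other across the 13 heart libraries, after the mean of each vector group was subtracted from log2 CPM. The 2 light chains varied together: Pearson's r between Myl2 and Myl3 was 0.90 (permutation p = 1e-05, the smallest that the permutations can give; adjusted p = 0.0001 over 10 pairs) and Spearman's rho was 0.93 (permutation p = 4e-05). Within the groups r was 0.89 in GFP and 0.94 in F11 hearts, and without L1 and L40, the libraries farthest from the median, it was 0.88. Myh7 and Myh7b had an r of 0.61 (permutation p = 0.0336, adjusted p = 0.168; rho 0.57, permutation p = 0.0575), which fell to 0.32 without L35 and L8. Myh6 had an r between -0.28 and 0.23 with the other 4 genes, all with an adjusted permutation p of 0.549. In GFP hearts alone, Myh6 ran against Myl2 (r = -0.79, unadjusted exact permutation p = 0.075) and Myl3 (r = -0.81, unadjusted exact permutation p = 0.0333), while in F11 hearts these values were 0.25 and 0.20; the difference between the groups was not tested.

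The chains were also set against the summed atrial markers, a comparison added after the data were seen. Myl3 had an r of -0.58 with them (permutation p = 0.026, adjusted p = 0.130 over the 5 genes; rho -0.64, adjusted p = 0.0611) and Myl2 an r of -0.49 (permutation p = 0.126, adjusted p = 0.315; rho -0.65, adjusted p = 0.0611). Without L1 and L8 these were -0.64 and -0.53. L1 and L38, with the highest atrial sums of their groups, also had the lowest Myl2 and Myl3 values of their groups. For Myh6, Myh7 and Myh7b r was 0.16, -0.14 and 0.06 over all 13 libraries (adjusted permutation p from 0.823 to 0.855), and -0.39, -0.53 and -0.69 without L1 and L8, so with those libraries left out all 5 chains had a negative r. Within the groups the heavy chains differed in sign: in GFP hearts r was 0.61 for Myh6, 0.31 for Myh7 and 0.69 for Myh7b, and in F11 hearts it was -0.49, -0.73 and -0.75 (unadjusted exact permutation p from 0.0194 to 0.597 in GFP and from 0.0492 to 0.258 in F11); the difference between the groups was not tested.

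**Figure D3:**
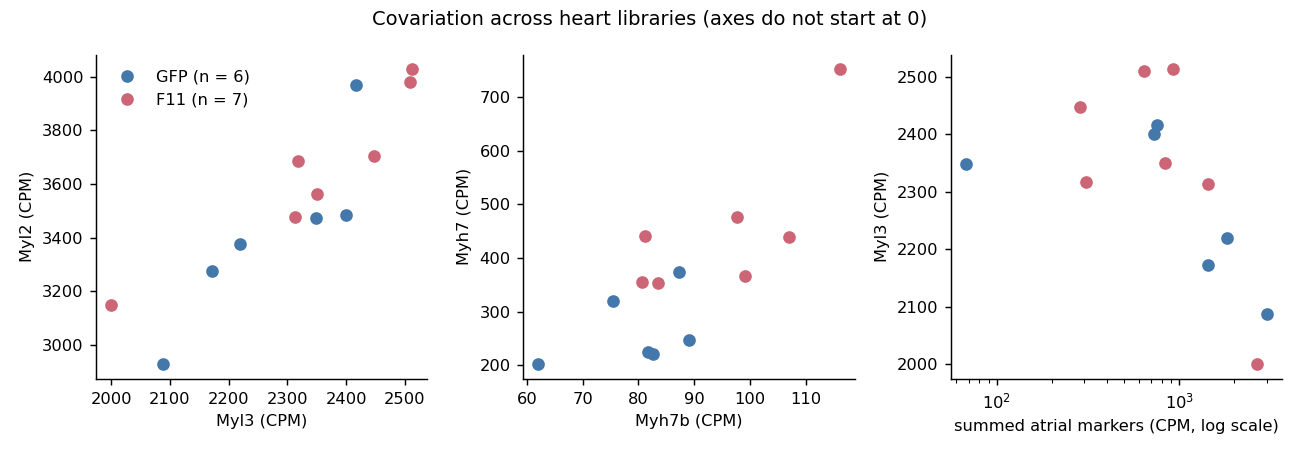
Pairs of values in the 13 heart libraries, GFP in blue and F11 in red, on axes that do not start at 0: Myl2 against Myl3 (CPM), Myh7 against Myh7b (CPM), and Myl3 (CPM) against the summed atrial markers (CPM, log scale). Myl2 and Myl3 fall along 1 line in both groups, and the Myh7 to Myh7b relation rests on L35 at the upper right and L8 at the lower left.

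The genes that followed each chain most closely were picked out of 7513 with a mean of at least 10 CPM in heart, so their r is high by selection. Here r is given over 13 libraries with group means subtracted, as a description. For Myh7 they were Actn2, the alpha-actinin of the Z-disc (r = 0.93), Hspb7, a small heat shock protein of heart muscle (0.89), and Xirp1, an actin-binding protein (0.89). For Myl3 they were Higd1a (0.95), Phb, the mitochondrial protein prohibitin (0.93), and Fam162a (0.91). For Myl2 they were Psmb7, a proteasome subunit (0.95), Akr1b3, aldose reductase (0.91), and Prdx6, a peroxiredoxin (0.91). For Myh6 the highest were lower, Gart, an enzyme of purine synthesis (0.86), Gca (0.82) and Nbas (0.80). For Myh7b they were Adamtsl5 (0.89), Btrc (0.88) and Rsad1 (0.86). Without the 2 libraries farthest from the median of each chain, r ran from 0.73 (Rsad1) to 0.95 (Psmb7).

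Partners of myosin were counted in lists by role, beside a median log2 fold change of -0.01 and a positive share of 47.5% over all genes tested in heart. Of 14 genes of the thin filament and Z-disc, 12 had a positive value (median 0.12) and 1 was called: Tcap, the titin cap protein of the Z-disc, rose from a mean of 450 ± 42.4 CPM in GFP hearts to 616 ± 70.7 CPM in F11 hearts, a log2 fold change of 0.45 (edgeR adjusted p = 0.00602). Its call, like that of Myh6, was lost in the edgeR fit over both tissues (edgeR adjusted p = 1). Of 7 thick filament partners tested, 6 were positive (median 0.16) and none was called. Among them Ttn, the giant spring protein titin, had means of 8628 ± 397 and 10182 ± 1576 CPM (edgeR adjusted p = 0.25).

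The other myosins were counted the same way. A list of other myosin chains had 7 genes tested. It held the atrial light chain genes Myl4 and Myl7, and Myh14, which encodes a nonmuscle heavy chain. Its median is therefore not one of striated muscle chains alone. Of these 7 genes, 2 were positive (median -0.18) and none was called. Myh14 had an adjusted p of 0.66 and Myh8 of 0.671 by edgeR. Of 7 smooth and nonmuscle chains, 4 were positive (median 0.02), with the nonmuscle heavy chain Myh9 at a log2 fold change of 0.17 (edgeR adjusted p = 0.401) and the light chain Myl6 at -0.09 (edgeR adjusted p = 0.635). Of 7 light chain kinases and phosphatase subunits, 4 were positive (median 0.02) and none was called, Mylk4 standing at 0.17 (edgeR adjusted p = 0.588) and Ppp1r12a at -0.05 (edgeR adjusted p = 0.735). Of 6 genes of myosin folding and turnover, 4 were positive (median 0.03) and none was called, the methyltransferase gene Smyd2 standing at 0.16 (edgeR adjusted p = 0.178) and the ubiquitin ligase gene Trim63 at -0.11 (edgeR adjusted p = 0.46).

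Regulators of the myosin genes were likewise without calls. Thyroid hormone is known to raise Myh6 and lower Myh7. In the thyroid hormone axis 4 of 11 genes tested were positive (median -0.03); the receptor gene Thra had means of 71.5 ± 3.51 and 66.1 ± 1.73 CPM (edgeR adjusted p = 0.175). Of 19 transcription factors of myosin genes, 8 were positive (median -0.02). Esrrb, an orphan nuclear receptor, had the log2 fold change 0.18 (edgeR adjusted p = 0.136), and Tead4, which binds MCAT elements, 0.36 (edgeR adjusted p = 0.136). Of 10 fetal and stress genes, the group in which Myh7 is usually counted, 5 were positive (median 0.05) and none was called. In it Nmrk2, a nicotinamide riboside kinase, had a log2 fold change of 0.40 (edgeR adjusted p = 0.192), which passed the threshold without the F11 library L38 (0.48, edgeR adjusted p = 0.0223). Ankrd1, a stretch-responsive protein of the sarcomere, had means of 659 ± 304 and 931 ± 228 CPM (edgeR adjusted p = 0.557).

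**Figure D4:**
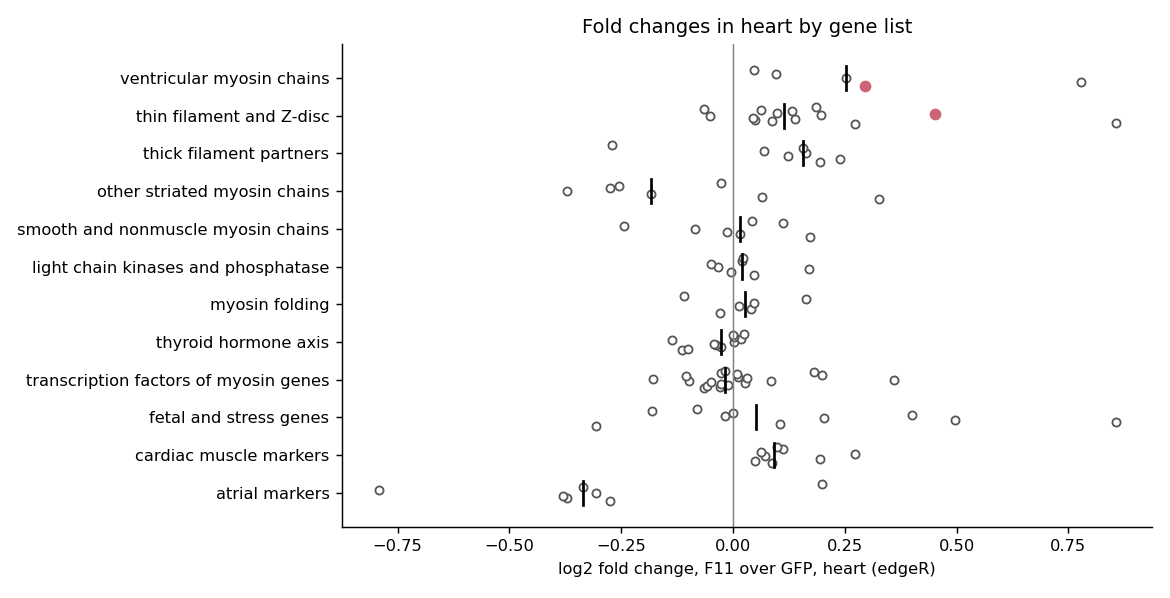
Log2 fold change in heart (F11 over GFP, horizontal axis, 0 marked by a line) of every tested gene in each list; filled points have an edgeR adjusted p under 0.05 and the short vertical bar is the median of the list. The 2 filled points are Myh6 among the ventricular myosin chains and Tcap in the thin filament and Z-disc list. The list labelled other striated myosin chains also holds the nonmuscle gene Myh14.

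The same transcripts were then followed in adipose tissue. In 14 of the 16 adipose libraries they were close to 0 relative to heart: taken as counts per 1e6 of the library total, the median was 0.0653% of the heart mean for Myh6, 0.0887% for Myl3, 0.107% for Myl2, 0.161% for Myh7 and 0.358% for Myh7b. The highest of these 14 libraries was L147 for 4 of the 5 genes, with Myh6 at 0.112% and Myl2 at 0.177%. These percents depend on the scaling: with TMM over both tissues L147 had Myh6 at 0.0576% and Myl2 at 0.0909%. The counts in the 14 libraries ran from 269 to 566 for Myh6, from 3.64 to 21.1 for Myh7 and from 2 to 10 for Myh7b. Myh7 and Myh7b thus rested on few reads per library. The shares differed between the genes, and the source of these counts was not tested.

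The GFP adipose library L140 was different. Its Myh6 stood at 4128 CPM. Per library total, its Myh6 was at 14.8% of the heart mean, its Myl3 at 19.0%, its Myh7b at 22.4%, its Myl2 at 22.6% and its Myh7 at 27.2%. With TMM scaling over both tissues the shares in L140 were lower: 8.11%, 10.4%, 12.3%, 12.4% and 14.9% in the same order. All other percents of heart means in this paragraph are per library total. The 8 cardiac muscle markers in L140 ranged from 10.2% (Ryr2, the calcium release channel) to 25.8% (Tnnt2, cardiac troponin T) of their heart means. Fast skeletal muscle markers summed to 60.6 CPM in L140, to between 31.3 and 39.6 CPM in the other GFP adipose libraries and to between 28.7 and 42.9 CPM in the F11 adipose group. Slow skeletal muscle markers summed to 1856 CPM in L140, to between 207 and 291 CPM in the other GFP adipose libraries and to between 190 and 326 CPM in the F11 adipose group. Atp2a2, the most abundant of the slow markers, is also high in heart (mean 11713 CPM with GFP). The atrial markers of L140 summed to 292 CPM. Its Myh7 to Myh6 ratio was 0.0254. The adipose medians were 0.0232 with GFP, L140 included (from 0.0128 to 0.0470), and 0.0388 with F11 (from 0.0182 to 0.0664). The L140 ratio lay within those ranges, and also below the highest heart value, 0.0256 in L35. It lay above the medians of both heart groups, as did both adipose medians. Outside L138 and L140 the adipose ratios rest on 3.64 to 21.1 Myh7 counts per library, against 1588 in L140. The GFP adipose library L138 came next, with the 5 chains between 0.324% (Myh6) and 0.638% (Myh7b) of their heart means.

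**Figure D5:**
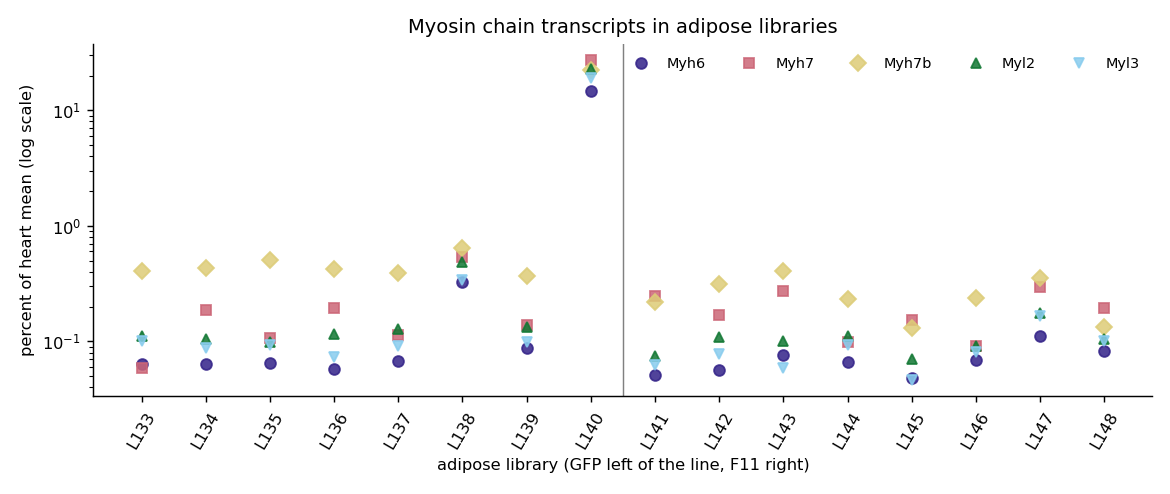
Level of each myosin chain gene, per library total, in the 16 adipose libraries as a percent of its mean over the heart libraries (vertical log axis, GFP libraries left of the line, F11 libraries right). L140 lies between 14.8% and 27.2%, L138 between 0.324% and 0.638%, and for each gene the other 14 libraries lie below L138.

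No chain was called between the vectors in adipose tissue, where 0.0% of 15229 genes passed with edgeR, 4.19% had an unadjusted p under 0.05, DESeq2 called 7 genes and limma voom 0. The fitted log2 fold changes were -4.90 for Myh6, -4.33 for Myh7, -4.93 for Myl2 and -4.97 for Myl3 (edgeR adjusted p from 0.939 to 0.9995). In this fit, which included L138 and L140, their unadjusted edgeR p ran from 0.0023 to 0.0055. Without L140 the log2 fold changes were -0.57, -0.01, -0.68 and -0.56. Without both L138 and L140, left out after the data were seen, they were 0.04, 0.49, -0.15 and -0.09, so the sign for Myh6 and Myh7 turned once both were left out. Myh7b did not pass the filter on low counts. Its level ran from 0.324 to 21.2 CPM in GFP adipose libraries (median 0.379) and from 0.114 to 0.352 CPM in F11 libraries (median 0.205), and 0 of 8 F11 libraries lay above the GFP median. On the log2(CPM + 0.1) scale the difference was -1.34 (two-sided exact permutation p = 0.000622, unadjusted). Without L138 and L140 it was -0.59 (exact permutation p = 0.00266, unadjusted). No other gene was tested in this way, so how often genes with such low counts reach these values is not known. Outside L138 and L140 each Myh7b value rests on 2 to 10 counts.

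The effect of the vector was also compared between tissues, as the F11 effect in heart minus that in adipose tissue. For the 5 chains this difference ran from 3.92 (Myh7b) to 5.19 (Myh6) on the log2 scale, with edgeR adjusted p from 0.289 to 0.299, where 0.0242% of 16526 genes were called in either direction and 0.0121% higher. DESeq2 gave differences from 5.58 to 7.44 and called all 5 (adjusted p from 1.03e-06 to 0.00454), among 170 genes that it called. That fit included L138 and L140, and DESeq2 was not run without them. Without L138 and L140 the edgeR differences were between 0.15 and 1.02, with edgeR adjusted p from 0.257 to 0.913, and none was called.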

How the data were processed

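Per the labels' protocols, miRNeasy total RNA was made into Nugen Universal Plus mRNA libraries and read on a NovaSeq. The authors made the estimated count of each gene with kallisto 0.46 on GRCm38.p6, per the submitters' processing notes, and deposited it without scaling. The sources used here do not give the annotation release, the strand setting or how transcripts were summed, so transcripts antisense to Myh6 or Myh7 cannot be told apart from them; 30.8% of values were not whole. Symbols and coordinates came from GENCODE M21 (35935 of 36558 identifiers matched) and microRNA sequences from RefSeq. Lengths per kb are those of 1 annotated transcript a gene.

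Of 30 labelled libraries, 29 were used; L10, a GFP heart, was not analysed here. Groups follow the titles, and replicates are separate libraries: whether each is another mouse is not in the labels, so the tests measure only the spread between libraries. Counts of 2 libraries of a group differed by a chi-square per degree of freedom of at least 3.51, so none was counted as a repeat. Library numbers run in blocks by group, and a batch that follows them cannot be told apart from the vector.

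Counts were rounded and tested with edgeR 4.0.16 in R 4.3.3 (filterByExpr, TMM, robust quasi-likelihood, two-sided, Benjamini-Hochberg adjusted p under 0.05 over all genes tested), separately in each tissue. DESeq2 1.42.0, limma 3.58.1 voom, other scalings, filters and left-out libraries were alternatives. The approximate 95% intervals of log2 fold changes were taken from their SE. Ratios were tested by exact permutation over 1716 splits, and correlations by 100000 permutations (exact within groups). Scripts were tested on simulated counts. The genes and lists were chosen with earlier results of these data known. Named genes are the 5 chains, in each list those called in heart or else the 2 with the lowest p, and the 3 most alike to each chain. Some genes that this rule names are not reported here. Precision of genes with few counts is limited by library totals of 15.95 to 33.02 (in units of 1e6).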

Additional observations from a re-analysis of the deposited data

Results flagged for a closer look

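In 36 sets of values (5 genes and 4 ratios in 4 groups), the highest or lowest library was compared with the rest of its group by Dixon's test at the 95% level, which marks about 1 in 20 groups by chance; 11 sets held a library that stood apart.

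Myh6 was highest among GFP hearts in L1, at 25565 CPM, with the next at 23288 CPM in L6. L1 also had the highest summed atrial markers of the heart libraries, 3033 CPM. Myh7 was highest among F11 hearts in L35, at 752 CPM against 477 CPM in L36, and so was its ratio to Myh6, 0.0256 against 0.0152 in L33; the atrial markers of L35 summed to 308 CPM. Myl3 was lowest among F11 hearts in L38, at 1999.6 CPM against 2313 CPM in L31, and L38 had the highest atrial sum of the F11 hearts, 2674 CPM. The part of atrial tissue in these values was not tested.

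In adipose tissue, L140 stood apart from the other GFP libraries for all 5 chains: Myh6 at 4128 CPM, Myh7 at 107 CPM, Myh7b at 21.2 CPM, Myl2 at 860.03 CPM and Myl3 at 473 CPM. The next library, L138, had 82.8, 1.93, 0.552, 16.8 and 7.78 CPM in the same order. Among F11 adipose libraries, L147 was highest for Myl2, at 6.25 CPM against 3.89 CPM in L144, and for Myl3, at 3.79 CPM against 2.27 CPM in L148.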

How the results depend on the processing

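The log2 fold change of Myh6 in heart was 0.29 to 0.31 under 8 of the other settings and passed in each of them; in the fit over both tissues it was 0.30 and did not pass (adjusted p = 1). With single libraries left out it was 0.28 to 0.33 (adjusted p from 0.0012 to 0.00859). Myh7 passed with DESeq2 only (0.78) and ran from 0.61 to 0.90 with single libraries left out (adjusted p from 0.0794 to 0.243). Myh7b, Myl2 and Myl3 stayed positive and short of the threshold in every setting run. The count of genes called in heart, 128 (76 higher and 52 lower), was 356 with DESeq2 (217 higher), 205 with limma voom (124 higher), 30 in the fit over both tissues (13 higher), 307 at a threshold of 0.1 (171 higher) and 87 to 179 with single libraries left out.

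In adipose tissue DESeq2 called 7 genes and the fit over both tissues 4, against 0. Myh6 there turned to 0.0409 without L138 and L140, and Myh7 to 0.0186 with DESeq2, 0.0231 with limma voom and 0.49 without L138 and L140. The count of genes whose effect differed between tissues, 4, was 2 with no filter, 170 with DESeq2 (121 higher in heart), 2 without L138 and L140 and 1 to 6 with single libraries left out.

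With single heart libraries left out, the log2 difference ran from 0.34 to 0.58 for Myh7 to Myh6, from 0.0331 to 0.0789 for Myl2 to Myl3 and from -0.29 to -0.18 for light to heavy chains. No paired analysis was possible because the library numbers in the labels are not shared between groups. Myh7 and Myh7b in adipose tissue are limited by depth, at 2 to 21.1 counts in 14 of 16 libraries. Except where said, the cause of a change with the setting was not tested.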

Other observations

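A pair of light chain genes outside the ventricular set, chosen after their values were seen, stood differently in adipose tissue. Myl1, the essential light chain of fast skeletal muscle, had a mean of 28.6 ± 8.99 CPM in GFP adipose libraries (SD, n = 8), 27.1 ± 7.39 CPM in F11 adipose libraries (SD, n = 8) and 27.4 ± 11.4 CPM in GFP hearts (SD, n = 6). In counts per 1e6 of the library total, the median of the 14 adipose libraries outside L138 and L140 was 25.8 for Myl1, as in heart (mean 25.8), where the same median for Myh6 was 0.0653% of its heart mean. Myl4, the atrial essential light chain, had a median in those 14 libraries of 5.77% of its heart mean, and it stood at 20.7% in L140. The medians of Myl4 in adipose tissue were 13.8 CPM with GFP and 14.01 CPM with F11. The log2 fold change between the vectors in adipose tissue was -0.08 for Myl1 (edgeR adjusted p = 0.9995).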
